A study of Mus musculus with 12 samples.

Results

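The alpha and beta globin genes were described here across 12 mRNA libraries of G1E-ER4 cells. The 9 members were listed by gene symbol and found in the deposited count table of 17210 genes: the alpha-like Hba-a1, Hba-a2 and Hba-x, and the beta-like Hbb-b1, Hbb-b2, Hbb-bs, Hbb-bt, Hbb-bh1 and Hbb-y. Near-identical copies share reads, so the counts of the 3 alpha-like and of the 6 beta-like members were also summed in each library. G1E-ER4 is a mouse erythroid progenitor line that lacks its own GATA1 and carries GATA1 joined to the hormone-binding domain of estrogen receptor, so that the fusion is active only with β-estradiol (EST). It is a cell line, and the labels give no separate clones. All 4 groups carry the fusion. Cells were transduced for 24 h with a retrovirus, either empty (Vector) or encoding the active fragment of SREBP2 (residues 1 to 468), the transcription factor that drives cholesterol synthesis, and then received EST for 6 h or none, which gives Vector, Vector+EST, SREBP2 and SREBP2+EST with 3 libraries each. For EST the protocol of the samples gives 500 nM, and the design text 200 nM. The labels also give the strain as C57BL/6J and the cell type as embryonic stem cells, the kind of cell from which the line was derived. Library numbers are those of the count table's headers. Nothing in the labels says that they came from separate cultures, so p-values measure the spread between these samples, which may be technical.

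Hemoglobin is a tetramer of alpha-like and beta-like chains with a heme in each chain. The genes of each type lie in a cluster, alpha on mouse chromosome 11 and beta on mouse chromosome 7, in which some genes are used in the primitive red cells of the embryo (Hba-x, Hbb-bh1, Hbb-y) and others in definitive red cells (Hba-a1, Hba-a2 and the adult beta pair). GATA1, KLF1 and NF-E2 act at both clusters through promoters and distal enhancers, and a balanced supply of both chains is needed because free alpha chains precipitate. Inbred mice carry different adult beta pairs: Hbb-bs and Hbb-bt form the Hbb-s haplotype of C57BL/6, and Hbb-b1 and Hbb-b2 the Hbb-d haplotype of other strains.

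The copies are hard to tell apart with reads of 50 bases. Within the coding sequence, Hba-a1 and Hba-a2 differ at 1 of 429 bases in the GENCODE M21 transcripts (C381T, counted from 1 at the A of the start codon), and Hbb-bs and Hbb-bt at 1 of 444 bases (C417T). These windows of 21 bases are shown because reads over the capital base are among the few coding reads that can separate the copies.
Hba-a1: cctctctggaCaaattccttg
Hba-a2: cctctctggaTaaattccttg
Hbb-bs: ctggagtggcCgctgccctgg
Hbb-bt: ctggagtggcTgctgccctgg

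Of the 505 windows of 50 bases in the Hba-a2 transcript, 439 (86.9%) are also in Hba-a1, and the 66 others are its own. In Hba-a1 the shared windows are 439 of 650 (67.5%), and in Hbb-bs 381 of 579 (65.8%). Hba-x, Hbb-bh1 and Hbb-y shared no window with another gene. The deposited counts bear the mark of this sharing. Hba-a1 and Hba-a2 each had a whole-number count (within 0.02) in only 2 of 12 libraries, and their sum was whole in 12 of 12. Hbb-b1 and Hbb-b2 were whole in none of the 12 libraries, nor was the sum of these 2 genes, whereas the sum with Hbb-bs and Hbb-bt was whole in 12 of 12. Reads were thus divided within the alpha pair and among the 4 adult beta genes, and the split within each of these sets is an estimate of the counting while the sums are not.

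The start regions of the alpha genes are shown because both copies moved together below. RefSeq (GRCm38.p6) places Hba-a1 at chr11:32283672-32284486 and Hba-a2 at chr11:32296492-32297310, both on the plus strand. The 210 bases before each annotated start are chr11:32283462-32283671 for Hba-a1 and chr11:32296282-32296491 for Hba-a2, and those of the embryonic Hba-x are chr11:32276390-32276599. Capitals mark the GATA core (GATAAG), the CAAT box (CCAAT), the CACCC box (CACCC) and the TATA core (TATAA), on either strand.
Hba-a1: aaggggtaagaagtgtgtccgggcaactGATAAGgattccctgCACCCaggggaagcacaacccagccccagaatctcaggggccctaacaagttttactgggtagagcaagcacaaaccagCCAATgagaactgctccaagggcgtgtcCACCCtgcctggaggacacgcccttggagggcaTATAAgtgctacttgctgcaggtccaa
Hba-a2: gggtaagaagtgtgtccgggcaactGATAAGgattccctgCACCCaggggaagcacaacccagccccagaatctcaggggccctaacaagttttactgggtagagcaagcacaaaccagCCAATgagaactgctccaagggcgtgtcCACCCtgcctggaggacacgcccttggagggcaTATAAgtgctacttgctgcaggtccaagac
Hba-x: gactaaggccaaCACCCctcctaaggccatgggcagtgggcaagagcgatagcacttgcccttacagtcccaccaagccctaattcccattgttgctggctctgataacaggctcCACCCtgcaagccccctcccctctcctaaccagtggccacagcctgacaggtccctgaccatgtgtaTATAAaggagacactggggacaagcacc

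Over the 250 bases before the start, Hba-a1 and Hba-a2 shared an identical stretch of 247 bases, shifted by 3, so every motif found in Hba-a1 was in Hba-a2 too. GATAAG, the core that GATA factors bind, began 182 bases before the Hba-a1 start, and 6.55% of 32851 promoter entries hold it in the same window. The letters were also in the windows of Hbb-bs and Hbb-bt and not in those of Hba-x or Hbb-y. CCAAT occurs in 33.8%, CACCC in 52.0% and TATAA in 22.8% of entries, and all 3 were in both adult alpha windows. TGAGTCA, a core shared by NF-E2 and AP-1 (4.46% of entries), and TCACCCCAC, a core of sterol regulatory elements (0.496%), were in none of the 6 member windows searched. Hbb-b1, Hbb-b2 and Hbb-bh1 had no entry in the promoter table.

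The libraries held 18700959 to 19152281 counts each, of which the 9 members took 0.427% to 0.699%, and 3 counts correspond to 0.157 to 0.16 CPM (counts scaled to a common library size, after TMM scaling). Mouse Srebf2 was at 361 ± 8.32 CPM in Vector and 816 ± 20.1 in SREBP2 (SD, n = 3). The supplement of the study names human SREBP2 as the transcript measured in overexpressing cells, and whether reads from the virus were counted under the mouse gene was not tested. Erythroid progenitor markers summed to 2747 to 2823 CPM in the Vector libraries and 2351 to 2609 in the other 9. This is the same split of libraries as in the alpha genes below. The 10 listed genes moved both ways. With EST in Vector cells 3 were called higher (adjusted p under 0.05) and 7 lower, and with SREBP2 without EST 3 and 6. Klf1 and Alas2 were called higher in both. Of all genes tested, 35.2% were called higher and 35.5% lower with EST in Vector cells, and 37.7% and 33.8% with SREBP2 without EST. For SREBP2+EST against Vector these shares were 38.6% and 34.2%. The 7 embryonic stem cell markers summed to at most 0.592 CPM, with Pou5f1, Zfp42 and Tdgf1 at 0 or not listed, which goes against the labelled cell type. Megakaryocyte markers (6 of 6 listed) summed to 44.1 to 63.3 CPM in the Vector and Vector+EST libraries. In the SREBP2 and SREBP2+EST libraries they summed to 88.1 to 113. Of the 4 tested, 2 were called higher and 2 lower with SREBP2 without EST, and 1 and 3 with EST in Vector cells. With SREBP2 in the presence of EST 2 were called higher and 0 lower, where 14.0% and 7.94% of all genes tested were. Fibroblast markers (9 of 9 listed) summed to 19.7 to 20.8 CPM in Vector and 5.07 to 37.0 in Vector+EST, with library 5 the highest. They summed to 4.45 to 6.07 in SREBP2 and up to 35.9 in SREBP2+EST, where all 3 libraries were above those of SREBP2. These sums hide the direction of most of the genes. Of 6 tested, 4 were called higher and 1 lower with EST in Vector cells (median log2 fold change 4.63). The same counts were called for SREBP2+EST against Vector (median 5.58), and 0 and 1 with SREBP2 without EST. Myeloid and mast markers summed to 5.99 to 7.03 CPM in the Vector libraries and 2.96 to 5.31 in the other 9, with Mcpt8 at 0 or not listed. Neural markers summed to less there (181 to 189 CPM against 200.0 to 249), but most of the called neural genes went the other way. Of 6 tested, 1 was called higher and 2 lower with EST in Vector cells, and likewise with SREBP2 without EST. For SREBP2+EST against Vector 1 was called higher and 4 lower. The part of all these markers in the globin results was not tested. On the first principal component of all tested genes (65.3% of the variance), SREBP2 library 1 lay at 29.6, near SREBP2+EST libraries 2 and 5 (31.0 and 31.2), while SREBP2+EST library 1 lay at 26.1, between these and SREBP2 libraries 3 and 5 (22.5 and 22.4). On the second component SREBP2 library 1, at 9.81, again lay with SREBP2+EST libraries 2 and 5 (9.04 and 9.41), and SREBP2+EST library 1, at 16.1, with SREBP2 libraries 3 and 5 (17.9 and 17.4). Each of these 2 libraries thus lay nearer to the libraries of the other EST setting on the second component, and results that rest on them are given with and without both. Since they were picked for their closeness to the other group, leaving them out widens the EST difference in SREBP2 cells and narrows the spread by construction, so the values without them are a description with no test.

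Of the 9 members, 6 passed the low-count filter and were tested. The embryonic alpha-like gene Hba-x had at most 1 count in any library and 4 counts over all 12. The embryonic beta-like gene Hbb-y had 15 counts over all libraries and at most 5 in any. Hbb-bt was listed at 0 in 11 libraries and at 7.69 in SREBP2+EST library 5. Differences in these 3 genes were not detectable at such counts. Apart from the counts of the adult beta genes and the ratios and shares of counts below, levels were compared between genes only per kilobase of GENCODE transcript. On that scale Vector cells had 4420 ± 164 CPM per kb of Hba-a1, 500 ± 15.4 of Hba-a2, 3.87 ± 0.604 of Hbb-bh1 and 0.873 ± 0.447 of Hbb-bs (SD, n = 3); Hbb-b1 and Hbb-b2 have no transcript in that annotation and were left out.

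The adult beta counts went to the Hbb-d pair. Hbb-b1 took at least 47314 counts in every library and Hbb-b2 at least 1280, whereas Hbb-bs took 3.19 to 16.94 and Hbb-bt at most 7.69. The labelled strain, C57BL/6J, carries Hbb-bs and Hbb-bt, so the counts at this locus go against the label. Reads of the 4 genes were divided by the counting, and the haplotype of the line was not tested in any other way.

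Adult alpha globin fell with EST. Hba-a1 stood at 3222, 3017 and 3030 CPM in Vector libraries 1, 4 and 5 and at 1711, 1735 and 1763 in Vector+EST libraries 1, 3 and 5. Hba-a2 went from 286, 269 and 277 CPM to 157, 140 and 158. All 3 Vector+EST libraries lay far below the 3 Vector libraries for both genes, with no overlap and with a gap many times the spread within either group. The alpha-like sum, which does not depend on the split of reads, fell from 3367 ± 122 to 1888 ± 28.7 CPM (SD, n = 3), to 56.1% of the Vector level, with a log2 fold change of -0.83 ± 0.04 (SE) and an adjusted p of 5.55e-11 (edgeR quasi-likelihood test, Benjamini-Hochberg). Only these 2 members were called of the 6 tested, both lower, where 70.6% of all 11177 genes tested were called, 35.2% higher and 35.5% lower. These are shares of bulk RNA, so fewer cells expressing a gene and less RNA per cell cannot be told apart.

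Beta globin moved little in the same libraries. Hbb-b1 was at 3250, 3083 and 3076 CPM in Vector and 2876, 2943 and 2854 in Vector+EST, all 3 slightly below, with a log2 fold change of -0.12 ± 0.06 and an adjusted p of 0.0935. The beta-like sum went from 3217 ± 99.9 to 2964 ± 46.9 CPM (-0.12 ± 0.06 on the log2 scale, adjusted p = 0.0974). This small difference was on the edge of the threshold. The beta-like sum became a call without Vector library 4 or 5, SREBP2 library 1 or 5, or SREBP2+EST library 2 (adjusted p = 0.0272 to 0.0435), and so did Hbb-b1 (adjusted p = 0.0276 to 0.0415). Hbb-b2 was at 79.4, 75.9 and 77.9 CPM in Vector and 66.0, 71.3 and 71.8 in Vector+EST (-0.16 ± 0.12, adjusted p = 0.248).

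**Figure D1:**
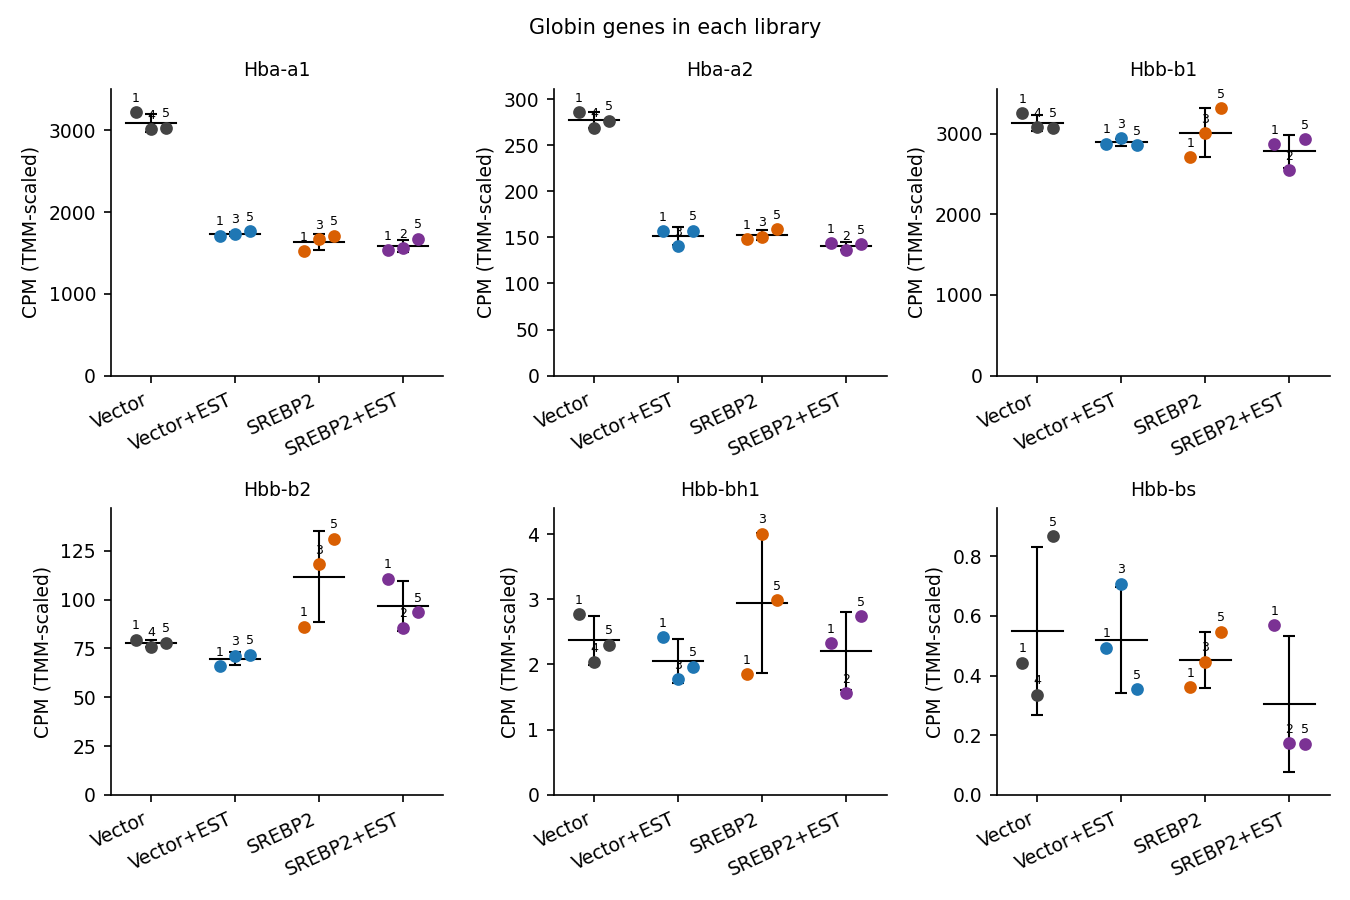
CPM (TMM-scaled counts) of the 6 tested globin genes in each of 12 libraries, 1 panel per gene with an axis from 0; points are libraries with their header numbers, the long line is the group mean and the bar its SD (n = 3). Hba-a1 and Hba-a2 are high in the Vector libraries and low in the other 9, Hbb-b1 varies little, and all 6 Hbb-b2 values with SREBP2 lie above the other 6.

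SREBP2 without EST was associated with a fall of alpha globin of about the same size. Hba-a1 was at 1525, 1666 and 1712 CPM in SREBP2 libraries 1, 3 and 5, and Hba-a2 at 148, 151 and 159, again with no overlap with Vector. The alpha-like sum was 1787 ± 103 CPM, 53.1% of the Vector level (log2 fold change -0.91 ± 0.04, adjusted p = 1.58e-11). The beta-like sum, at 2797, 3130 and 3449 CPM in libraries 1, 3 and 5, straddled the 3 Vector values and differed by -0.04 ± 0.06 on the log2 scale (adjusted p = 0.557). Hbb-b1 was not called there, but was without SREBP2 library 5 (-0.14, adjusted p = 0.0379). Here 3 of the 6 tested members were called, Hba-a1 and Hba-a2 lower and Hbb-b2 higher, where 71.5% of all genes tested were called, 37.7% higher and 33.8% lower.

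Hbb-b2 was the member that rose with SREBP2. It stood at 86.1, 118 and 131 CPM in SREBP2 libraries 1, 3 and 5, all above the highest Vector value of 79.4, with a log2 fold change of 0.52 ± 0.12 and an adjusted p of 0.000709. With EST it was at 111, 85.6 and 93.5 CPM in SREBP2+EST libraries 1, 2 and 5 against at most 71.8 in Vector+EST (0.47 ± 0.12, adjusted p = 0.00872). Without SREBP2 library 1 and SREBP2+EST library 1 these differences were 0.64 and 0.36. With all 12 libraries the effect of SREBP2 on Hbb-b2 was not detectably different between the EST settings (interaction -0.05 ± 0.16, adjusted p = 0.801). Leaving out those 2 libraries gave -0.28, which was called in that fit but is no test, given how they were picked. Hbb-b2 shares reads with Hbb-b1, which was at 2708, 3007 and 3314 CPM in SREBP2. The values of Hbb-b2 depend on the estimated split of the adult beta reads, and the part of that split in its rise was not tested.

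With EST in both arms, SREBP2 added little to the alpha genes. The alpha-like sum was 1678, 1692 and 1816 CPM in SREBP2+EST libraries 1, 2 and 5 and 1868, 1875 and 1921 in Vector+EST libraries 1, 3 and 5, with no overlap and a gap of the same order as the spread. The log2 fold change was -0.13 ± 0.04 with an adjusted p of 0.0445, a call that was lost without Vector+EST library 1, 3 or 5, SREBP2 library 3, or SREBP2+EST library 1 or 2 (adjusted p = 0.0558 to 0.129). Hba-a1 was called lower (-0.13, adjusted p = 0.0479), and that call too was lost without any of 8 single libraries, namely the same 6 and Vector library 1 or 5 (adjusted p = 0.0503 to 0.143). Hba-a2 was not called (-0.11 ± 0.05, adjusted p = 0.133), but was with library totals only (-0.15, adjusted p = 0.0224) and without Vector+EST library 3 (-0.16, adjusted p = 0.0312). In all, 2 of the 6 tested members were called, Hba-a1 lower and Hbb-b2 higher, where 21.9% of all genes tested were called, 14.0% higher and 7.94% lower.

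In SREBP2 cells EST was followed by no called change of any member, as 0.0% of the genes tested were called there by edgeR. At an unadjusted p under 0.05, 1 of the 6 members and 4.54% of all genes tested differed, and DESeq2 called 12 of 11173 genes and no member. The alpha-like sum was 1673, 1817 and 1871 CPM without EST and 1678, 1692 and 1816 with it, overlapping groups that differed by -0.05 ± 0.04 on the log2 scale (adjusted p = 0.918). The beta-like sum differed by -0.12 ± 0.06 (adjusted p = 0.918). This comparison rests on the 2 libraries that lie near the other group. Without SREBP2 library 1 and SREBP2+EST library 1, the log2 fold change was -0.07 for the alpha-like sum, -0.21 for the beta-like sum, -0.20 for Hbb-b1 and -0.48 for Hbb-b2.

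The alpha response to EST therefore differed with the vector, and this difference was tested directly. The interaction, the EST effect in SREBP2 cells minus that in Vector cells, was 0.79 ± 0.06 on the log2 scale for the alpha-like sum (adjusted p = 1.73e-08), 0.79 ± 0.06 for Hba-a1 (adjusted p = 2.4e-08) and 0.75 ± 0.07 for Hba-a2 (adjusted p = 1.11e-07). For the beta-like sum it was 0.00 ± 0.09 (adjusted p = 0.989). The 2 alpha genes were the members called of 6 tested, where 59.0% of all genes tested were called, 29.8% higher and 29.2% lower. All of these comparisons share libraries, so they are not independent of each other.

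Ordered by the alpha-like sum, the groups ran from Vector through Vector+EST and SREBP2 to SREBP2+EST. Vector differed from each of the others. SREBP2 and Vector+EST were not told apart (-0.08 ± 0.04, adjusted p = 0.205), nor were SREBP2+EST and SREBP2. SREBP2+EST stood at 51.4% of Vector (-0.96 ± 0.04, adjusted p = 8.11e-12), and there 4 of the 6 tested members were called, Hba-a1, Hba-a2 and Hbb-b1 lower and Hbb-b2 higher, where 72.7% of all genes tested were called, 38.6% higher and 34.2% lower. For the beta-like sum Vector was highest and SREBP2+EST lowest, at 89.6% of Vector (-0.16 ± 0.06, adjusted p = 0.0296), and the neighbours in that order were not told apart. The call on the beta-like sum was lost without Vector library 1 (-0.13) or SREBP2+EST library 2 (-0.12), and so was that on Hbb-b1 (-0.15 and -0.13). The call on Hbb-b2 was lost with DESeq2 (0.28, adjusted p = 0.0863), with library totals only (0.25, adjusted p = 0.0514) and without Vector library 4 or 5 or SREBP2+EST library 1 (0.20 to 0.27, adjusted p = 0.0865 to 0.133). Between SREBP2 and Vector+EST 1 member was called, Hbb-b2, which was higher (0.68 ± 0.12, adjusted p = 0.000415), where 23.4% of all genes tested were called, 14.4% higher and 8.96% lower.

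**Figure D2:**
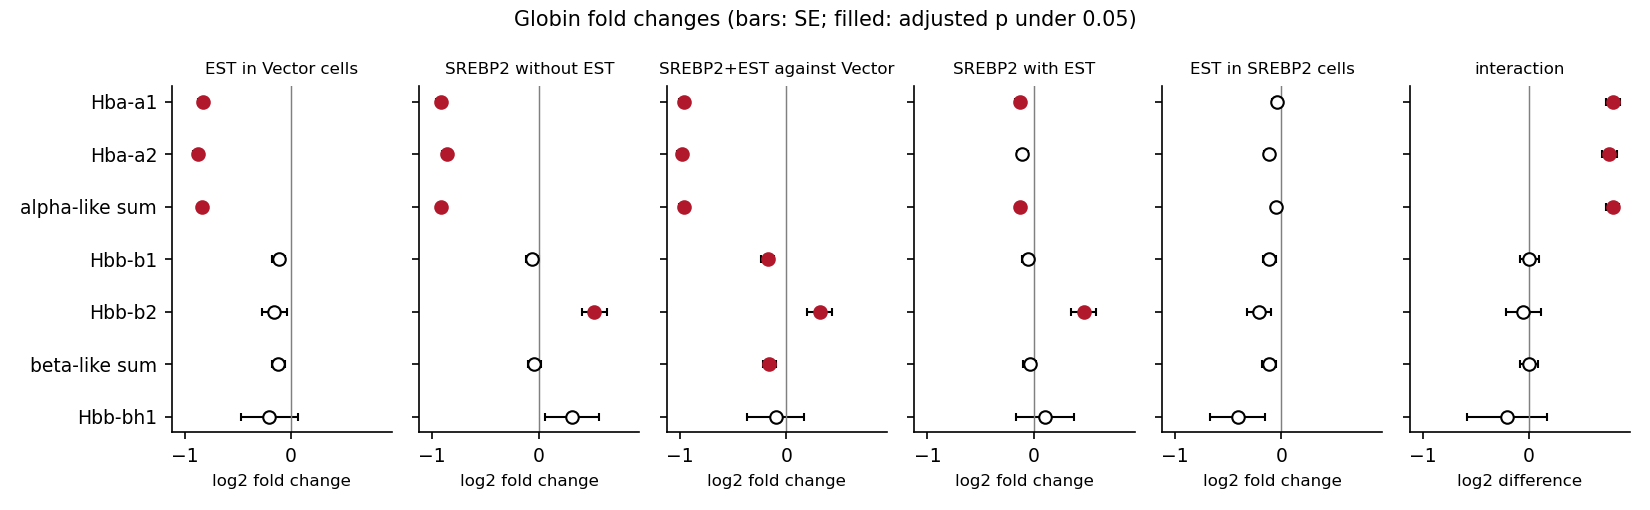
Log2 fold changes (horizontal axis) of 5 globin genes and the alpha-like and beta-like sums in 5 comparisons, and the interaction as a log2 difference; bars are SE from the edgeR fit of 12 libraries, and filled points have an adjusted p under 0.05. The alpha rows lie near -0.83 to -0.98 in the 3 comparisons with Vector as the reference, near 0 in the other 2 and at 0.75 to 0.79 in the interaction, and the beta-like sum lies between -0.16 and 0.00 in all 6 panels.

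The balance of alpha-like over beta-like counts does not depend on library scaling. As a ratio of counts it depends on transcript length, so only its changes are read. In Vector libraries 1, 4 and 5 it was 1.053, 1.039 and 1.047. It was 0.634, 0.621 and 0.656 in Vector+EST, 0.598, 0.581 and 0.542 in SREBP2 and 0.563, 0.642 and 0.600 in SREBP2+EST. The 9 libraries with EST, SREBP2 or both thus lay between 0.542 and 0.656, far below the 3 Vector libraries. On the log2 scale the ratio fell by 0.72 with EST in Vector cells and by 0.87 with SREBP2 without EST; in each the exact two-sided permutation test gave p = 0.1, the smallest that 3 against 3 libraries allow (adjusted p = 0.291 over the 32 tests on ratios and shares). With EST in both arms the SREBP2 difference was only -0.09 (exact permutation p = 0.3, adjusted p = 0.505), and in SREBP2 cells the EST difference was 0.07, with the opposite sign (exact permutation p = 0.4, adjusted p = 0.533). Between SREBP2 and Vector+EST, whose ratios did not overlap, it was -0.15 (exact permutation p = 0.1, again the smallest possible, adjusted p = 0.291).

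Within the adult beta counts the share of Hbb-b2 separated the libraries by vector. It was 2.385%, 2.404% and 2.468% in Vector and 2.241%, 2.365% and 2.454% in Vector+EST. It was 3.08%, 3.779% and 3.812% in SREBP2 and 3.714%, 3.249% and 3.091% in SREBP2+EST. The 6 SREBP2 libraries all lay above the 6 others, by 1.07 percentage points on average within EST settings (exact permutation p = 0.005, the smallest that this test allows; adjusted p = 0.16). The share of Hba-a2 in the adult alpha counts stayed between 7.48% and 8.84% in all 12 libraries, with a difference of 0.217 points between vectors (exact permutation p = 0.29, adjusted p = 0.505). The embryonic genes made up 0.0606% to 0.13% of the beta-like counts, with 0.0144 points between vectors (exact permutation p = 0.215, adjusted p = 0.459).

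**Figure D3:**
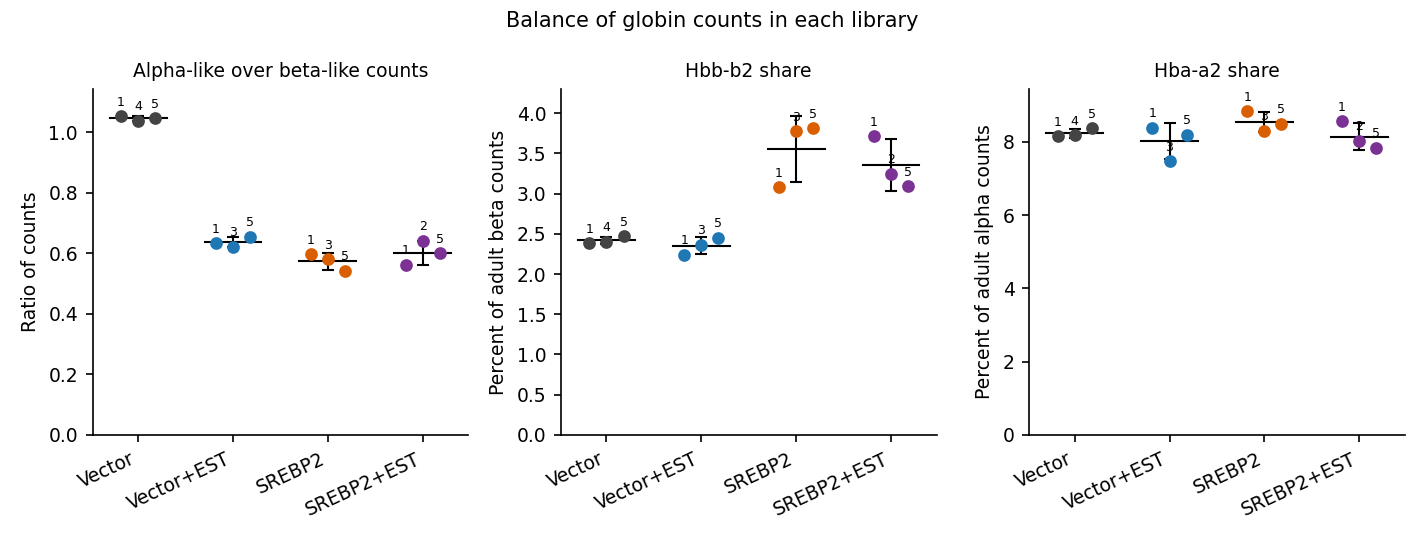
Alpha-like over beta-like counts as a ratio (left), and the shares in percent of Hbb-b2 in adult beta counts (middle) and of Hba-a2 in adult alpha counts (right), for each of 12 libraries; points are libraries with header numbers, the long line is the group mean and the bar its SD (n = 3). The ratio is above 1.03 only in Vector, the Hbb-b2 share is at least 3.08% in every SREBP2 library and at most 2.47% elsewhere, and the Hba-a2 share lies near 8% throughout.

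The embryonic beta-like genes stayed at trace levels. Hbb-bh1 had 29 to 74 counts in a library. It was at 2.77, 2.04 and 2.30 CPM in Vector, 2.42, 1.78 and 1.96 in Vector+EST, 1.85, 4.01 and 2.98 in SREBP2 and 2.33, 1.56 and 2.75 in SREBP2+EST. The 4 groups overlapped and no comparison was called, the nearest being SREBP2 against Vector+EST (0.52 ± 0.26 on the log2 scale, adjusted p = 0.176). SREBP2 library 1 held the lowest value of its group, and without it Hbb-bh1 was called higher in SREBP2 than in Vector+EST (0.76, adjusted p = 0.0188) and than in Vector (0.56, adjusted p = 0.0354, against 0.31 with all libraries and 0.026 without SREBP2 library 3). Hbb-bs, at 0.172 to 0.867 CPM, was not called in any comparison of the 12 libraries either. Without SREBP2+EST library 1 it was called lower in SREBP2+EST than in Vector (-1.76, adjusted p = 0.0157), from 3.21 and 3.19 counts in the 2 libraries left. In library 5 of these, 7.69 counts went to Hbb-bt, with which it shares reads, and the sum of the pair was 10.88 there and 3.21 in library 2, against 6.59 to 16.94 in Vector; the sum of this pair was not tested.

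Other genes of the globin family were almost silent. Of 8 listed, 7 were in the table and 2 passed the filter. Hbq1b, which lies between the adult alpha copies and encodes a theta globin, shares reads with Hbq1a, and the counts of both together were 73, 56 and 57 in Vector, 10, 14 and 12 in Vector+EST, 13, 24 and 15 in SREBP2 and 24, 15 and 18 in SREBP2+EST. The 3 Vector libraries thus stood above the other 9, as they did for the alpha genes. Hbq1b alone fell with EST in Vector cells (-2.49 ± 0.28 on the log2 scale, adjusted p = 6.39e-07) and with SREBP2 without EST (-1.71 ± 0.25, adjusted p = 1.39e-05), and its interaction was 2.63 ± 0.42 (adjusted p = 5.77e-05). Hbb-bh2, a beta-like gene, was not called in any comparison. Of 6 genes beside the alpha cluster, 4 were tested. Rhbdf1, an inactive rhomboid protease, was at 8.45 CPM in Vector and 3.01 in Vector+EST (-1.49 ± 0.12, adjusted p = 9.68e-09), and Mpg, a DNA glycosylase, at 21.9 and 12.9 (-0.76 ± 0.07, adjusted p = 8.88e-08). Snrnp25, a protein of the minor spliceosome, rose instead, from 27.0 to 32.6 CPM with EST (0.27 ± 0.07, adjusted p = 0.00372) and from 32.6 to 54.3 with SREBP2 in the presence of EST (0.74 ± 0.07, adjusted p = 5.64e-07). In all, 1 of the 4 neighbours rose and 3 fell with EST in Vector cells, where 70.6% of all genes tested were called.

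Regulators of the globin clusters moved in both directions. Of 36 listed factors and cofactors, all were tested, and with EST in Vector cells 13 rose and 20 fell, where 35.2% of all genes tested were called higher and 35.5% lower, with a median log2 fold change of -0.22 against 0.01 over all genes tested. SREBP2 without EST gave 14 higher and 19 lower (37.7% and 33.8% of all genes), and SREBP2 with EST 9 and 10 (14.0% and 7.94%). EST in SREBP2 cells gave 0 and 0 (0.0% of all genes). Gata1 reads, which include any from the fusion, fell from 1769 ± 17.1 to 452 ± 28.4 CPM with EST (-1.97 ± 0.07, adjusted p = 5.18e-13) and were at 557 ± 40.2 in SREBP2. Tal1, which acts in a complex with GATA1, fell from 479 to 99.7 CPM (-2.26 ± 0.09, adjusted p = 4.18e-12), and Cbfa2t3, a corepressor of that complex, from 348 to 74.8 (-2.22 ± 0.12, adjusted p = 1.54e-10). Klf1, an activator of the beta promoter, went the other way, from 267 to 335 CPM (0.33 ± 0.08, adjusted p = 0.00115). Bach1, a heme-sensitive repressor that competes for NF-E2 sites, rose from 30.0 to 174 CPM (2.54 ± 0.05, adjusted p = 3.06e-15).

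With EST in both arms, the largest called differences of these regulators between SREBP2+EST and Vector+EST were in Nfe2l1, Maff and Nfe2. Nfe2, the subunit of NF-E2 restricted to blood cells, was at 263 ± 1.52 CPM in Vector, 101 ± 6.71 in Vector+EST, 247 ± 40.6 in SREBP2 and 226 ± 31.8 in SREBP2+EST. It fell with EST in Vector cells (-1.38 ± 0.11, adjusted p = 7.28e-09) and was higher in SREBP2+EST than in Vector+EST (1.15 ± 0.11, adjusted p = 4.43e-07). Nfe2l1, a related factor, was at 69.4 and 71.0 CPM in Vector and Vector+EST and at 262 and 246 in SREBP2 and SREBP2+EST (1.79 ± 0.04 with EST, adjusted p = 1.17e-14). Maff, a small Maf partner of these proteins, was at 1.17 CPM in Vector+EST and 3.42 in SREBP2+EST (1.54 ± 0.18, adjusted p = 6.04e-06). The pattern of Nfe2 was not that of the alpha-like sum, which was lower in SREBP2 than in Vector by -0.91 on the log2 scale, where Nfe2 differed by -0.09 ± 0.10 (adjusted p = 0.434).

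**Figure D4:**
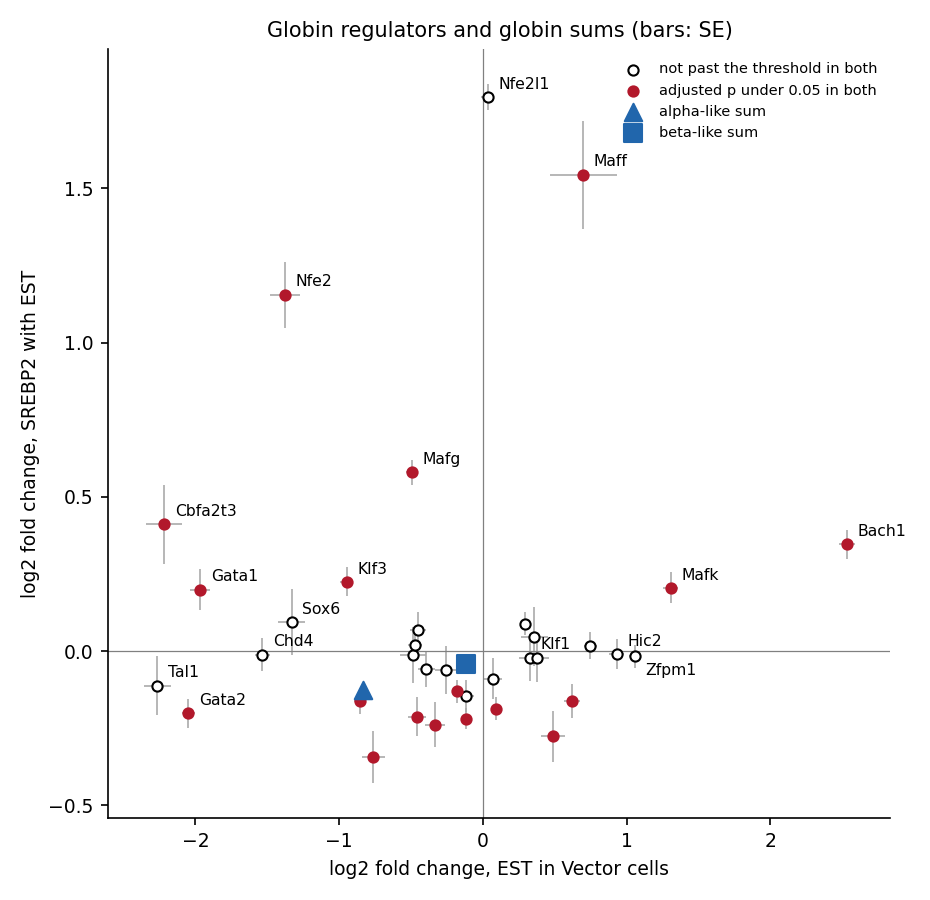
Log2 fold change with EST in Vector cells (horizontal) and with SREBP2 in the presence of EST (vertical) for the 36 globin regulators and the 2 globin sums; bars are SE for the regulators, and filled circles have an adjusted p under 0.05 in both. The axes share the Vector+EST libraries. Most regulators spread along the horizontal axis, while Nfe2l1 at 1.79, Maff at 1.54 and Nfe2 at 1.15 stand high on the vertical one and the alpha-like sum (-0.83 and -0.13) and the beta-like sum (-0.12 and -0.04) lie near the horizontal axis.

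Of 10 listed genes for heme supply and globin balance, 9 were in the table and tested, and 5 rose and 4 fell with EST in Vector cells, where 35.2% of all genes tested were called higher and 35.5% lower. Alas2, which starts heme synthesis in red cells, rose from 52.1 ± 0.175 to 138 ± 6.83 CPM (1.4 ± 0.06, adjusted p = 6.97e-12) in the libraries in which alpha globin fell. Eif2ak1, the heme-regulated kinase that limits globin translation when heme is short, rose from 120 to 239 CPM (0.99 ± 0.04, adjusted p = 3.13e-12), and Xpo7, a nuclear exporter, from 117 to 230 (0.97 ± 0.06, adjusted p = 2.99e-10). Cyb5r3, which keeps hemoglobin iron reduced, fell from 273 to 184 CPM with EST (-0.57 ± 0.05, adjusted p = 1.29e-08) and was at 260 in SREBP2+EST (0.50 ± 0.05 for SREBP2 with EST, adjusted p = 4.47e-07). Ube2o, which tags unpaired alpha chains, was at 55.2 and 66.5 CPM in the same groups (0.27 ± 0.05, adjusted p = 0.000654).

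The genes whose pattern was most like that of the alpha-like sum and of the 4 members whose mean log2 CPM reached 3 are given as a description, among 8550 genes, by Pearson's r of log2 CPM over the 12 libraries. The alpha-like sum was most like Fiz1 (0.995), Inf2, Ssx2ip, Ifi35 and Pip4p2 (0.994 each), and all 5 were high in Vector and low in the other groups, a split between 3 libraries and 9 that sets such an r. Hba-a1 had the same nearest genes but with Gata2 (0.994) in place of Ssx2ip, and Hba-a2 was most like Mex3a (0.994), E2f2 and Myo18a (0.993), Tmem131l and Naa40 (0.992). For Hbb-b1 the nearest were Ccdc142 (0.919), Parp16 (0.892), Ppdpf and Arrb1 (0.86) and Rbm15b (0.853). Hbb-b2 was most like Slc3a2 (0.977), Orai3 (0.97), Egr1 (0.962), Ehbp1l1 (0.95) and Dok1 (0.948), and Slc3a2, an amino acid transporter chain, was at 273, 258, 323 and 315 CPM in Vector, Vector+EST, SREBP2 and SREBP2+EST.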

How the data were processed

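Groups were taken from the sample titles. The count table that the authors deposited holds unnormalized estimated counts, of which 66.5% are whole. The submitters' processing notes name HISAT2 2.0.4, Bowtie2 2.2.5, RSEM 1.2.12, DESeq2 1.4.5 and build GRCm38.p6 without their roles. A table of the authors' own comparisons per transcript (log2 fold changes and p-values for 4 pairs of groups) was not used here. Columns named the group but not the titled replicate. Counts were rounded, libraries scaled by TMM, genes filtered by filterByExpr (11177 tested, 6033 left out), and all 12 libraries fitted with 1 mean per group by edgeR 4.0.16 in R 4.3.3 (quasi-likelihood test). The sums were rows added after scaling, 6 in all. P-values were adjusted by Benjamini-Hochberg over all 11183 rows, with a threshold of 0.05, and SE is the log2 fold change over the square root of F. The code was tested on simulated data. Ratios and shares were tested by exact two-sided permutation. Alternatives were DESeq2 1.42.0, other scalings and filters, a block and libraries left out. Named genes were the 9 members, Srebf2, Gata1, Nfe2 and Klf1, the 3 largest called changes per list with EST in Vector cells and with SREBP2 plus EST, and the 5 genes most like each of Hba-a1, Hba-a2, Hbb-b1, Hbb-b2 and the alpha-like sum; other genes named with values, such as Gata2 and Hbb-bh2, came from these lists. The members and lists were chosen with earlier results of these data known.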

Additional observations from a re-analysis of the deposited data

Results flagged for a closer look

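The EST effect differed between SREBP2 and Vector cells, by the interaction in the edgeR fit, for the adult alpha genes and for the sums that hold them. The difference, SREBP2 cells minus Vector cells on the log2 scale, was 0.79 for Hba-a1 and 0.75 for Hba-a2. It was 0.79 for the alpha-like sum, 0.79 for the adult alpha sum, which differs from it only by the 4 counts of Hba-x, and 0.35 for the sum of all 9 members. In Vector cells the EST effect on these rows was negative in each, and in SREBP2 cells it was not called in any, with all 12 libraries fitted.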

How the results depend on the processing

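The fall of the alpha-like sum kept its direction and its call in each of the 21 alternatives run, from -0.89 to -0.81 on the log2 scale with EST in Vector cells, from -0.97 to -0.87 with SREBP2 without EST and from -1.02 to -0.93 for SREBP2+EST against Vector, as did the interaction (0.74 to 0.84, 20 alternatives). The rise of Hbb-b2 held in 21 of 21 without EST (0.39 to 0.68) and with EST (0.36 to 0.59). The cause of the changes below was not tested. With library totals only, the beta-like sum was called with EST in Vector cells (-0.13), and between SREBP2 and Vector+EST the alpha-like sum (-0.12) and 2 members were called, with 28.9% of all genes, and Hba-a2 (-0.032) and the sum of all members (-0.026) changed sign. The same scaling called 3 members for SREBP2 with EST, with 27.4% of all genes. With at least 10 counts in every library (-0.15) and with only the libraries compared (-0.11, 4 members and 75.5% of all genes called), the beta-like sum was called with EST in Vector cells.

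Same-numbered libraries did not deviate together (r from -0.174 to 0.0674), so the header numbers were not taken as pairs. With the header number as a replicate block, SREBP2 with EST gave -0.11 for the alpha-like sum (adjusted p = 0.247), -0.11 for Hba-a1 (adjusted p = 0.261) and 1 member called, with 10.8% of all genes, and the beta-like sum (0.028), the adult beta sum (0.027) and Hbb-b1 (0.011) changed sign. SREBP2+EST against Vector gave -0.11 for the beta-like sum (adjusted p = 0.201), -0.13 for Hbb-b1 (adjusted p = 0.142) and 0.045 for the embryonic beta sum. In the block fit the interaction changed sign for Hbb-b2 (0.12), Hbb-bh1 (0.29), Hbb-bs (0.32) and the embryonic beta sum (0.35), none of them called.

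Without SREBP2 library 1 and SREBP2+EST library 1, the beta-like sum was called with EST in Vector cells (-0.16, 4 members called), with EST in SREBP2 cells (-0.21, 2 members) and between SREBP2 and Vector+EST (0.15, 3 members), where 72.9%, 13.9% and 34.4% of all genes tested were called. The interaction of Hbb-b2 was called there too (-0.28), where 57.1% of all genes tested were called. Those 2 libraries were picked for lying near the other EST setting, so these calls are no test. The interaction changed sign for the beta-like sum (-0.059), the adult beta sum (-0.058) and Hbb-b1 (-0.050), as did the Hba-a2 share with SREBP2 plus EST (-0.085 points).

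Leaving out single libraries gave these ranges. With EST in Vector cells the beta-like sum ran from -0.17 to -0.094, Hbb-bs from -0.34 to 0.36, the Hba-a2 share from -0.397 to 0.058 points and the embryonic share from -0.0109 to 0.000264 points. With SREBP2 without EST the beta-like sum ran from -0.12 to 0.032, the adult beta sum from -0.12 to 0.031, Hbb-b1 from -0.14 to 0.011 and Hbb-bs from -0.604 to 0.093. With SREBP2 plus EST the alpha-like sum ran from -0.16 to -0.11, the beta-like and adult beta sums from -0.078 to 0.019, Hbb-b1 from -0.095 to 0.0036, Hbb-bh1 from -0.080 to 0.302 and the Hba-a2 share from -0.151 to 0.304 points, with 1 to 2 members and 15.7% to 27.2% of all genes called. For SREBP2+EST against Vector the beta-like sum ran from -0.21 to -0.12, Hbb-bh1 from -0.28 to 0.080, the embryonic beta sum from -0.21 to 0.11, the Hba-a2 share from -0.300 to 0.0584 points and the embryonic share from -0.00137 to 0.0133 points. Between SREBP2 and Vector+EST the beta-like sum ran from -0.0008 to 0.15, the adult beta sum from -0.0012 to 0.15, Hbb-b1 from -0.017 to 0.13, Hba-a2 from -0.043 to 0.042, Hbb-bs from -0.47 to 0.012 and the sum of all members from -0.044 to 0.081, with 1 to 2 members and 16.6% to 28.5% of all genes called. The interaction ran from -0.072 to 0.079 for the beta-like and adult beta sums, from -0.066 to 0.080 for Hbb-b1, from -0.21 to 0.079 for Hbb-b2, from -0.45 to 0.079 for Hbb-bh1 and from -0.40 to 0.13 for the embryonic beta sum, and the embryonic share with EST in SREBP2 cells ran from -0.030 to 0.00176 points. Hba-x, Hbb-y and Hbb-bt had too few counts to be tested. For Hbb-bt the count also depends on how reads were divided among the adult beta genes, and the part of depth was not tested.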
